A study of Mus musculus with 32 samples.

Results

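Adult oligodendrocyte progenitor cells (OPCs) exposed to inhibitors of lysine acetyltransferases (KATs) were compared with cells of the same kind exposed to the solvent dimethyl sulfoxide (DMSO). The comparison takes all 4 adult KAT inhibitor libraries and all 4 adult DMSO libraries, 8 of the 32 RNA sequencing libraries in the series, chosen by the treatment and age in their labels. All 8 come from O4+ cells isolated from the cortex of wild type C57BL/6 mice at postnatal day 60 and kept dividing in defined medium with PDGF-AA, bFGF and forskolin. The KAT inhibitor cultures, called KATi here, received 5 uM Garcinol together with 0.2 uM NU-9056 for 48 h, and the controls received 0.02% DMSO for 48 h. Each library carries a letter, A to D, and the same letters recur in DMSO, in KATi and in 4 adult libraries treated for 48 h with 5 uM A-196 (SUV420i), an inhibitor of the histone H4 lysine 20 methyltransferases SUV420H1 and SUV420H2. The letters are not explained in the labels. Cells from mice at postnatal day 5 were treated in the same way in 5 KATi and 5 DMSO libraries. The labels give at least 3 biological replicates per condition without saying whether each came from a separate animal, and the p-values therefore describe variation among these cultures only. Since both KAT inhibitors were given together, their separate contributions cannot be told apart.

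OPCs are the dividing glial cells that replace oligodendrocytes, the myelin-forming cells of the central nervous system. Lysine acetyltransferases attach acetyl groups to histone tails and to other proteins, and acetylated histone tails mark active promoters and enhancers. Garcinol is a plant compound known to inhibit EP300 and PCAF (KAT2B), and NU-9056 inhibits TIP60 (KAT5), the catalytic subunit of a complex that acetylates histones H4 and H2A. In the oligodendrocyte lineage, PDGF receptor signalling keeps progenitors dividing, Notch effectors of the Hes family and Id proteins hold back maturation, and Gpr17 marks progenitors that have left the cycle and are about to mature.

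The 8 libraries held between 23625408 and 37767190 counted reads. Total counts, mitochondrial share, the share of the 50 most abundant genes and the number of genes detected did not separate the treatments, with exact two-sided permutation p values of 0.286 or more, where 4 against 4 libraries can reach 0.0286. Libraries of one treatment differed strongly by letter. Mbp, which encodes myelin basic protein, stood at 6.31 and 8.99 CPM (read counts scaled to library size) in DMSO libraries A and B and at 212 and 341 CPM in C and D. Under KATi, Mbp stood at 6.68, 8.15, 190 and 365 CPM in A to D, the same division. Pdgfra was lowest in letter B under both treatments. Markers that define OPCs were abundant in every library, with summed levels of 26 such genes of 11900 to 13500 CPM in DMSO and 10100 to 12800 CPM in KATi. The 5 of 18 microglial markers that passed the filter on low counts summed to 18.3 to 26.1 and 19.8 to 22.9 CPM. Other lineages were not all low. The 20 astrocyte markers, some of which progenitors also express, summed to 6300 to 8830 and 5630 to 8080 CPM. The 15 neuron markers measured summed to 1420 to 1600 and 971 to 1820 CPM. In bulk RNA, fewer cells of a type and less RNA per cell cannot be told apart.

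Taken as 2 unpaired groups, no gene passed the test between KATi and DMSO in adult OPCs. Of 20259 genes tested with edgeR's quasi-likelihood test, 0 had a Benjamini-Hochberg adjusted p under 0.05 (0% of genes), 224 had an unadjusted p under 0.05 (1.11%), and DESeq2 also called 0. The median log2 change over all genes was -0.01, and 47.8% of genes had a positive value. Among the 12065 genes at a mean log2 CPM of 2 or more, only Neu4 differed by more than 1 on the log2 scale. The 95% interval lay within 1 log2 unit on either side of no change for 11578 of these genes, or 96%, so a change larger than 2-fold lay outside the interval for most expressed genes.

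With the letter added to the model as a replicate block, which compares each KATi library with the DMSO library of its letter, the interval lay within that bound for 99.5% of expressed genes. The blocked model gave 1236 genes with an unadjusted p under 0.05 (6.1%), 578 higher (2.85%) and 658 lower (3.25%), and 1 gene passed the adjusted threshold (0.00494% of genes). Whether the letters pair the KATi and DMSO cultures is not settled by the data. Deviations from the group mean correlated across genes between KATi and DMSO libraries of the same letter at 0.58 for A, 0.64 for B and 0.43 for C, but at 0.09 for D. KATi library D was as close to DMSO libraries A and C, at 0.1 each, as to its own letter. DMSO library D was closer to KATi library C, at 0.37, than to KATi library D. In the other adult comparisons every library was closest to its own letter, D included, at 0.56, 0.62, 0.46 and 0.18 between KATi and SUV420i and 0.52, 0.66, 0.49 and 0.41 between SUV420i and DMSO. Unblocked and blocked values are therefore both given.

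Stx11, a SNARE protein of late endosomes and secretory granules on chromosome 10 (12938209 to 12964298, minus strand, GRCm38, GENCODE M21), was the gene that passed in the blocked model. Its level was 0.457, 0.665, 0.248 and 0.618 CPM in DMSO libraries A to D and 1.42, 1.79, 0.805 and 1.73 CPM under KATi. All KATi values lay above all DMSO values. Over the whole table the groups did not overlap for 161 genes (0.795%), with KATi higher for 99 (0.489%) and lower for 62 (0.306%). The log2 change was 1.53 ± 0.24 (SE) with the block (adjusted p = 0.0343) and 1.51 ± 0.41 without it (adjusted p = 1). Leaving out any 1 letter brought the blocked count to 0. Its level was under 2 CPM in each of the 8 libraries, 7 to 21 reads in DMSO and 31 to 55 in KATi, so counting error is not small for this gene.

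When the blocked model was fitted to the 12 treated adult libraries alone, 12 genes passed (0.0592%). Klhdc7a, Anxa3, Cgref1, Adm and Col18a1 were higher under KATi, and Phactr3, Prkcq, Txnip, Draxin, Sez6l, Rph3a and Lims2 were lower. In the 8 KATi and DMSO libraries alone the blocked model called 1 gene, Gpr17 (adjusted p = 0.0245), or 0.00494% of genes. The blocked DESeq2 model called 55 of the 20259 genes entered, 24 higher and 31 lower. A model that treats the letter as a random effect called 0. In the lists described below, called refers to edgeR with all 32 libraries, with or without the block, and calls of the blocked DESeq2 model are named beside it. The genes named in this paragraph and Stx11 were singled out after their values were seen.

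Because so few genes passed, the 12 genes per direction with the smallest blocked p were taken among those with 1 direction in all 4 letters and a mean log2 CPM of 2 or more. Over the whole table, 6.94% of genes were higher and 7.16% lower in all 4 letters. None of the 24 passed the adjusted threshold in the blocked model of all libraries, where their adjusted p ran from 0.0989 to 0.44, so their adult values are descriptions and not calls. Whether they passed depended on the model. Blocked DESeq2 in 8 libraries called Cgref1, Prr5l, Anxa3, Adm and Piezo1 higher. It called Sez6, Phactr3, Miat, Shisal1, Draxin, Prkcq and Hes5 lower, and none of the other genes of the 24.

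Cgref1, a calcium-binding regulator of cell growth on chromosome 5 (30933143 to 30945591, minus strand), led the higher genes. Its level was 3.03, 4.5, 2.37 and 3.9 CPM in DMSO A to D and 4.75, 8.06, 4.15 and 7.97 CPM in KATi. Every KATi library exceeded the DMSO library of its letter, while the groups overlapped because KATi C lay below DMSO B. The blocked log2 change was 0.84 ± 0.15 (SE) and the unblocked one 0.85 ± 0.24. Hmga2, an architectural chromatin protein of progenitor cells, went from 22.3, 7.76, 21.7 and 25.9 CPM to 30.8, 11, 29.7 and 31.4 CPM. Letter B was lowest for Hmga2 under both treatments, and the blocked change was 0.42 ± 0.08.

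Anxa3, a phospholipid-binding annexin, stood at 2.45, 8.55, 2.02 and 11.7 CPM in DMSO and 4.11, 15, 3.84 and 20.6 CPM in KATi. Its levels formed a low set, A and C, and a high set, B and D, within each treatment, and the log2 ratio by letter stayed between 0.73 and 0.91. Adm, which encodes the secreted peptide adrenomedullin, stood at 5.98, 18.2, 4.43 and 6.51 CPM in DMSO and 9.64, 25.9, 7.37 and 12.5 CPM in KATi, with letter B far above the others in both. Piezo1, a mechanically gated cation channel, stood at 14.3, 27.7, 14.9 and 21.5 CPM and at 17, 44.3, 21.9 and 37.4 CPM. For these genes the difference between letters exceeded the difference between treatments.

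Tulp3, which carries receptors into primary cilia, was the only one of the 12 higher genes whose groups did not overlap, with 55.3, 52, 48.2 and 54.4 CPM in DMSO and 61.3, 68.1, 59 and 67 CPM in KATi. Its blocked log2 change was small, 0.28 ± 0.07. The remaining higher genes were Prr5l, a partner of mTOR complex 2, Synj2, an inositol lipid phosphatase, Camkk2, a calcium-dependent kinase, Eva1c, Dusp6, the ERK phosphatase, and Chrm3, the muscarinic M3 receptor, with blocked changes of 0.36 for Camkk2 to 0.60 for Chrm3. Without the block, leaving out KATi library B turned Camkk2 to -0.07 and Dusp6 to -0.01.

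**Figure D1:**
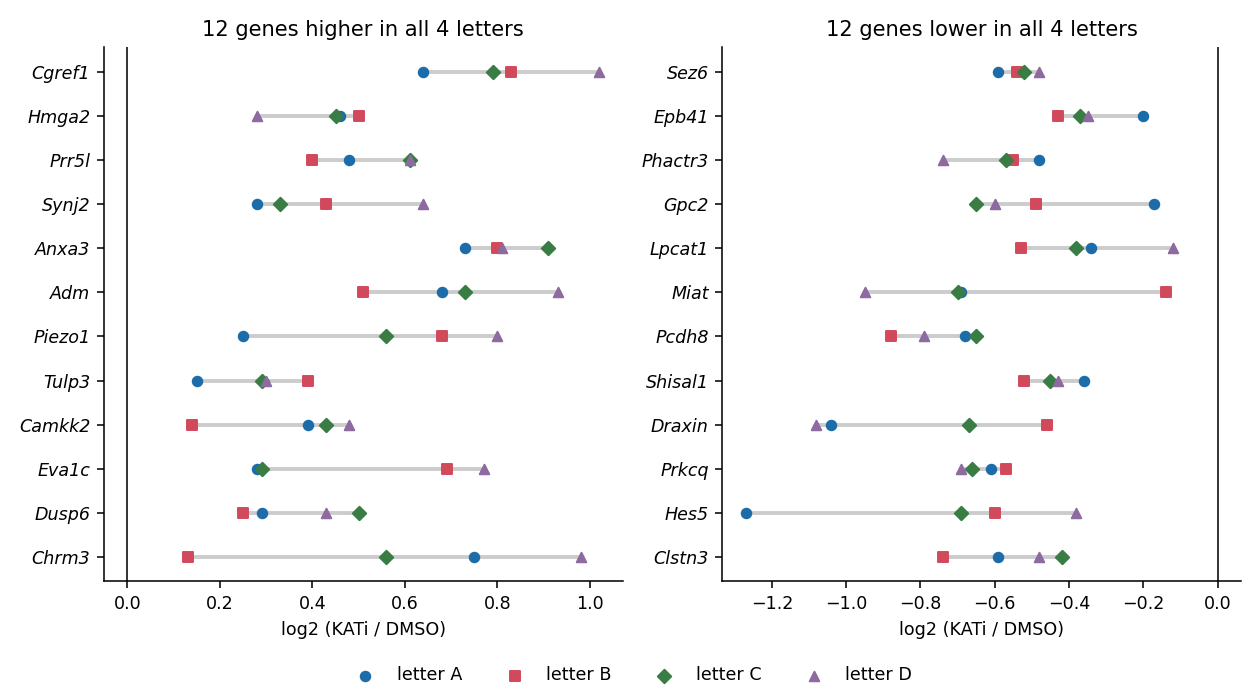
Log2 ratio of KATi to DMSO in adult OPCs for the 12 higher genes (left) and the 12 lower genes (right), with 1 point per letter and a grey bar over the range of the 4 letters. Direction in all 4 letters was part of how the genes were chosen. The spread within a row runs from narrow (Sez6, -0.59 to -0.48) to wide (Hes5, -1.27 to -0.38).

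Among the lower genes, Sez6, a membrane protein of neurons, showed the tightest ratios, between -0.59 and -0.48 across the letters. Its level was 81.9, 99.6, 85.9 and 64.9 CPM in DMSO and 54.5, 68.5, 59.7 and 46.5 CPM in KATi, and the groups overlapped only through KATi B, which lay above DMSO D. The blocked change was -0.54 ± 0.10. Prkcq, protein kinase C theta on chromosome 2 (11172108 to 11301222, plus strand), went from 191, 36, 110 and 90.8 CPM to 126, 24.2, 69.8 and 56.2 CPM. Its blocked change was -0.64 ± 0.15, with letter A high and letter B low under both treatments.

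Draxin, a secreted axon guidance protein on chromosome 4 (148098437 to 148130698, minus strand), stood at 20.6, 16.1, 102 and 40.8 CPM in DMSO and 9.98, 11.7, 64.1 and 19.2 CPM in KATi. Letter C held the highest Draxin level under both treatments, and the blocked change was -0.81 ± 0.19. Miat, a long noncoding RNA, stood at 141, 29, 91.8 and 53.5 CPM and at 87.3, 26.4, 56.6 and 27.6 CPM. The smallest step for Miat was in letter B, where the log2 ratio was -0.14. Hes5 is described with its pathway. Epb41 (a membrane skeleton protein), Phactr3 (a binding partner of protein phosphatase 1 and actin), Gpc2 (a glypican), Lpcat1 (a phospholipid acyltransferase), Pcdh8 (a protocadherin), Shisal1 and Clstn3 (a synaptic adhesion protein) had blocked changes between -0.76 for Pcdh8 and -0.34 for Epb41. Without the block, leaving out DMSO library A turned Shisal1 to 0.33 and Clstn3 to 0.14, and leaving out DMSO library C turned Draxin to 0.03.

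**Figure D2:**
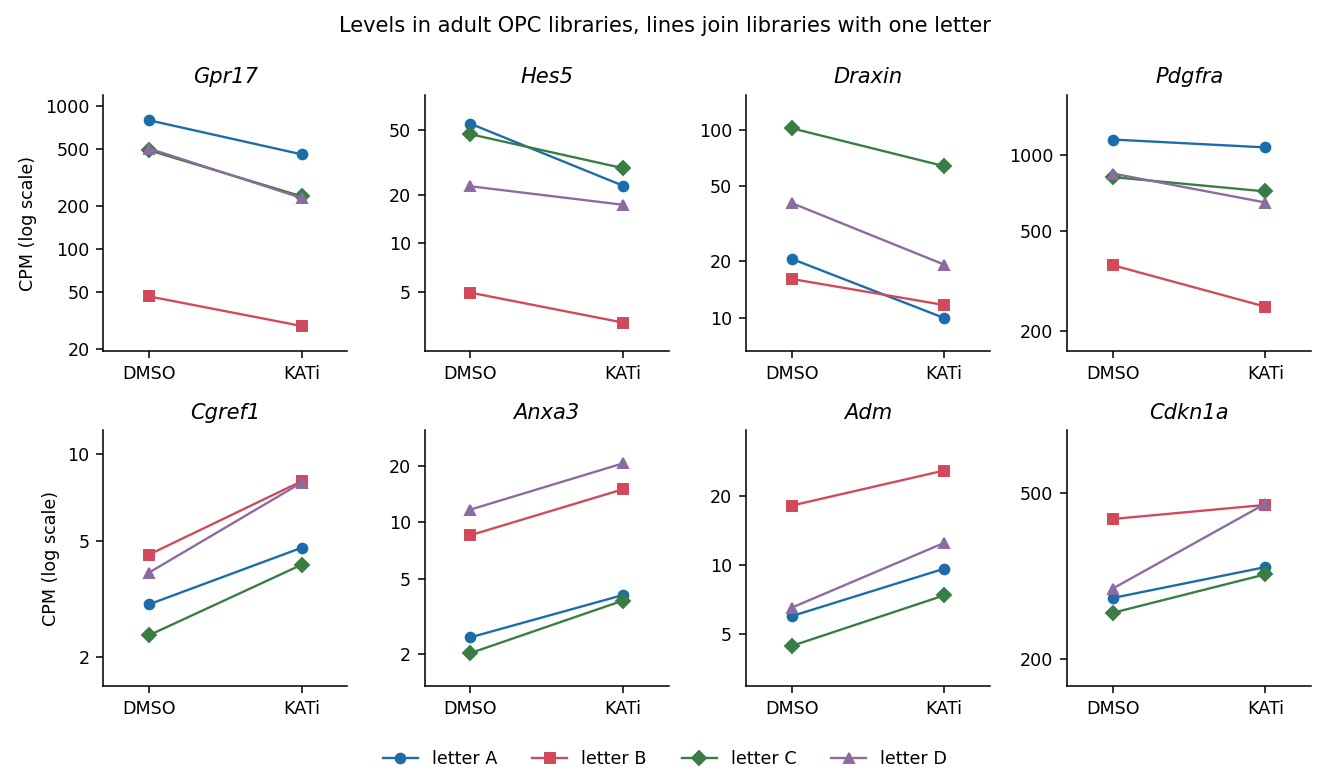
CPM on a log scale in the adult DMSO and KATi libraries for 8 genes, with a line joining the 2 libraries of each letter. All lines of Gpr17, Hes5, Draxin and Pdgfra run down and all lines of Cgref1, Anxa3, Adm and Cdkn1a run up, while the letters lie far apart, as for Gpr17 at 46.4 CPM in DMSO B and 795 CPM in DMSO A.

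Genes that define OPCs were mostly lower under KATi. Of 26 OPC markers measured, 0 were called, and the blocked DESeq2 model in 8 libraries called 2, Neu4 (adjusted p = 0.0483) and Tnr (adjusted p = 0.0411), both lower. Of the 26, 24 had a negative log2 change and 2 a positive one, and the median was -0.21 against -0.01 over all genes. In the blocked model 12 of the 26 had an unadjusted p under 0.05, all lower, where 3.25% of all genes did. Lower in all 4 letters were 11, against 7.16% of all genes. The median ratio was -0.12, -0.24, -0.18 and -0.22 in letters A to D. List members were given beyond those the naming rule picks, after their values were seen. This list and those below were chosen with earlier results of these data known. Their shares beside those of all genes are therefore descriptions and not tests.

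Pdgfra, the receptor for the mitogen PDGF-AA that was present in the medium, stood at 1150, 365, 816 and 843 CPM in DMSO and 1070, 250, 716 and 647 CPM in KATi. All 4 letters were lower and the groups overlapped widely, with a blocked change of -0.30 ± 0.10 and an unblocked one of -0.24 ± 0.40, which became 0.03 without KATi library B. Neu4, a sialidase, was low throughout, at 2.86, 0.443, 3.22 and 3.9 CPM in DMSO and 1.62, 0.325, 1.19 and 0.866 CPM in KATi, and had the largest change of the list, -1.38 ± 0.39 with the block. Tnr, the extracellular matrix protein tenascin-R, had a blocked change of -0.55 ± 0.23, and Sox8, a transcription factor of the lineage, of -0.27 ± 0.13. Cspg4, the NG2 proteoglycan, had a blocked change of -0.20 ± 0.09 and was higher in letter D. The lineage transcription factors Olig1 and Olig2 stayed near 0, at 0.00 ± 0.07 and 0.05 ± 0.08 with the block.

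Gpr17, the receptor of progenitors about to mature, stood at 795, 46.4, 490 and 504 CPM in DMSO and 459, 28.8, 233 and 227 CPM in KATi. Each KATi library lay below the DMSO library of its letter, and letter B was far below the others within each treatment. Leaving letter B aside, all KATi values lay under all DMSO values, with KATi A at 459 CPM close to DMSO C. The blocked change was -0.94 ± 0.24 (adjusted p = 0.431) and the unblocked one -0.95 ± 1.05 (adjusted p = 1). Gpr17 lies within Lims2 on the opposite strand. Since the counting is not stated to use strand, reads where the 2 genes overlap cannot be assigned with certainty, and Lims2 had a blocked change of -0.78 ± 0.20.

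Markers of later stages were less uniform. Of 17 committed progenitor markers 11 were negative (median -0.07) and of 26 myelin and oligodendrocyte markers 16 were negative (median -0.09), with 0 called in either list. The blocked DESeq2 model called Gpr17 in the first list and 2 genes, both lower, in the second. Myrf, a transcription factor required for myelination, had a blocked change of -0.55 ± 0.23, and Mobp, a myelin protein gene at under 2 CPM on average in each group, of 0.64 ± 0.24. Mbp itself had a change of -0.03 ± 0.23 with the block and 0.00 ± 1.06 without it, an interval too wide to show a moderate difference.

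Genes that restrain oligodendrocyte maturation were also mostly lower, 20 of 26 with a median of -0.11, 8 lower in all 4 letters and 0 called. Over all genes, 7.16% were lower in all 4 letters. The blocked DESeq2 model called 3 of them lower, Hes5 (adjusted p = 0.00235), Dll3 (adjusted p = 0.00931) and Id4 (adjusted p = 0.0483). Hes5, the Notch effector on chromosome 4 (154960923 to 154962371, plus strand), stood at 54.7, 4.97, 47.1 and 22.5 CPM in DMSO and 22.7, 3.25, 29.1 and 17.3 CPM in KATi. It was lower in every letter, with the widest step in A, and had a blocked change of -0.75 ± 0.18 (edgeR adjusted p = 0.302). Other members of the Notch pathway did not all follow: Dll3 had a blocked change of -0.52 ± 0.16 and Dll1 of -0.20 ± 0.09, whereas Hes1 had one of 0.19 ± 0.10. Id4, an inhibitor of basic helix-loop-helix factors, stood at 21.6, 13, 63.6 and 47.1 CPM and at 16.8, 9.94, 47.5 and 28.2 CPM, a blocked change of -0.49 ± 0.15. Of 20 genes that promote maturation 16 were negative as well, with a median of -0.10, 5 lower in all 4 letters and 0 called. Prmt5, Smarca4, Olig2 and Zfp536 of that list and Hes1, Notch2 and Axin2 among the repressors were on the positive side.

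S phase genes were higher in 3 of the 4 letters. All 55 S phase genes measured had a positive unblocked log2 change, with a median of 0.23, and 0 were called. By letter the median was 0.53 in A, 0.30 in C and 0.39 in D but -0.09 in B. Higher in all 4 letters were 8 of the 55, against 6.94% of all genes. In the blocked model 15 had an unadjusted p under 0.05, all higher, where 2.85% of all genes did. Cdt1, which licenses replication origins, stood at 18.6, 28.3, 14 and 17.7 CPM in DMSO and 24.6, 30.8, 21.6 and 34.2 CPM in KATi, a blocked change of 0.54 ± 0.21. DMSO library B had the highest Cdt1 level of the controls, and its step to KATi was the smallest.

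Of 67 G2 and M phase genes 62 were positive with a median of 0.17, and 0 were called. Letter medians were 0.53, -0.14, 0.19 and 0.17, again negative only in B. Higher in all 4 letters were 3 of the 67, against 6.94% of all genes. In the blocked model 2 were higher at an unadjusted p under 0.05, where 2.85% of all genes were. The summed G2 and M phase level ran from 5720 to 9570 CPM in DMSO and from 7230 to 8480 CPM in KATi, so the KATi range lay inside the DMSO range. Mki67, the proliferation marker Ki-67, stood at 373, 1200, 557 and 859 CPM in DMSO and 604, 984, 735 and 650 CPM in KATi, higher in A and C and lower in B and D. The 31 G1 regulators and cell cycle inhibitors had no common direction, with 16 positive and 15 negative (median 0.05). In all 4 letters 3 were higher and 5 lower, against 6.94% and 7.16% of all genes. At a blocked unadjusted p under 0.05, 4 were higher and 3 lower, against 2.85% and 3.25% of all genes. Cdk6, a kinase partner of the D cyclins, had a blocked change of -0.35 ± 0.12. Ccnd1, cyclin D1, stood at 789, 1460, 598 and 916 CPM and at 1090, 1550, 779 and 1410 CPM, higher in every letter with a blocked change of 0.39 ± 0.13.

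Targets of p53 were higher in 24 of 31 cases, with a median of 0.15, and 12 were higher in all 4 letters against 1 lower. Over all genes, 6.94% were higher and 7.16% lower in all 4 letters. None was called by edgeR, and the blocked DESeq2 model called Tnfrsf10b (adjusted p = 0.0498). In the blocked edgeR model 9 had an unadjusted p under 0.05, all higher, where 2.85% of all genes did. Letter medians were 0.25, 0.11, 0.18 and 0.28, so the list did not depend on 1 letter for its sign. Cdkn1a, the cyclin-dependent kinase inhibitor p21, stood at 280, 433, 258 and 295 CPM in DMSO and 332, 468, 319 and 471 CPM in KATi. KATi A and C lay below DMSO B, so the groups overlapped, and the blocked change was 0.34 ± 0.13. Tnfrsf10b, a death receptor for TRAIL, had a blocked change of 0.48 ± 0.13, Pmaip1, the apoptosis activator Noxa, of 0.39 ± 0.13, and Mdm2, the ligase that degrades p53, of 0.19 ± 0.07. Tnfrsf10b stood at 17.7, 38.4, 15 and 23.3 CPM in DMSO and 25.7, 47.7, 23.3 and 31.5 CPM in KATi.

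Several other lists, of stress response and immediate-early genes, were mostly positive, each by a small amount and with 0 called. The integrated stress response list was positive for 23 of 28 genes (median 0.13), led by Gdf15, a stress-induced cytokine, at 2.37, 4.5, 1.67 and 1.43 CPM in DMSO and 2.8, 7.28, 2.39 and 4.47 CPM in KATi. Letter D showed the widest step for Gdf15, a log2 ratio of 1.60, and letter D also had the highest median of that list, 0.39, against -0.03 in C. The list of oxidative stress genes and NRF2 targets was positive for 24 of 30 (median 0.10), led by Hmox1, heme oxygenase 1, with a blocked change of 0.45 ± 0.14. Immediate-early genes were positive for 23 of 28 (median 0.26), and apoptosis genes for 16 of 24 (median 0.12). Heat shock and metallothionein genes were positive for 13 of 18 (median 0.07). The unfolded protein response and hypoxia lists were not positive as a group. The 21 genes of the unfolded protein response were divided 11 to 10 (median 0.00), and 8 of 18 hypoxia targets were positive (median -0.05), among them Adm.

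Feedback regulators of growth factor signalling were positive for 20 of 32 genes (median 0.10). At a blocked unadjusted p under 0.05, 8 of the 32 were higher, where 2.85% of all genes were. Dusp6 stood at 162, 319, 102 and 148 CPM in DMSO and 198, 380, 145 and 200 CPM in KATi, a blocked change of 0.37 ± 0.09. Spry1 (0.22 ± 0.10), Spry2 (0.15 ± 0.07) and Spry4 (0.43 ± 0.14), inhibitors of receptor tyrosine kinase signalling, had positive blocked values, Spry4 in every letter but B. Pdgfra, also on this list, was the 1 member lower at that threshold. Among 40 extracellular matrix and adhesion genes 23 were positive (median 0.05), with Lamb1, a laminin chain, at 0.39 ± 0.11 and Tnc, tenascin-C, at 0.59 ± 0.23 in the blocked edgeR model, beside Tnr. The blocked DESeq2 model called Tnc higher and Tnr lower.

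**Figure D3:**
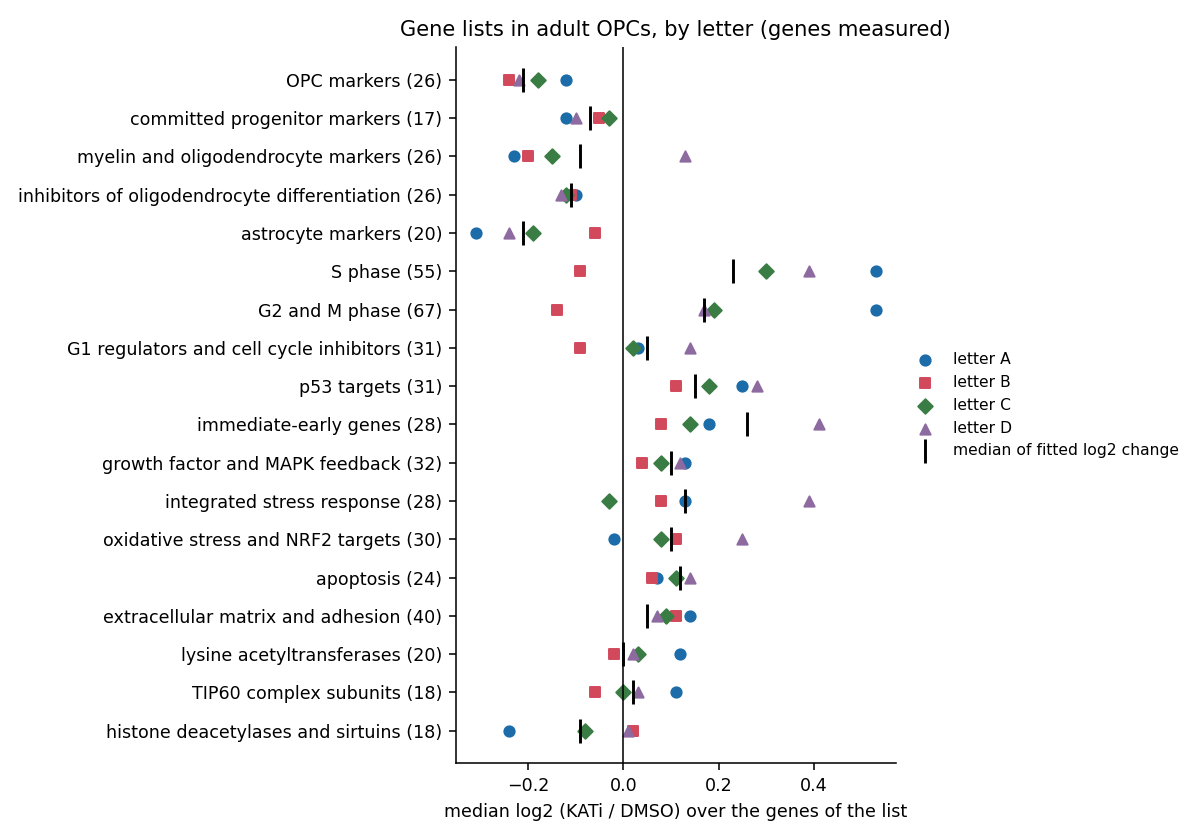
Median log2 ratio of KATi to DMSO over the genes of 18 lists, with 1 point per letter and a black tick for the median of the unblocked fitted change; the number of genes measured is in parentheses. OPC markers lie left of 0 in all 4 letters and p53 targets right of 0 in all 4, while the S phase median is 0.53 in letter A and -0.09 in letter B.

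RNA of the enzyme family itself was centred on 0. Of 20 lysine acetyltransferase genes 10 were positive and 10 negative, with a median of 0.00 and 0 called. Kat5, which encodes TIP60, stood at 51.3, 44.7, 48.2 and 37.4 CPM in DMSO and 49.6, 35.8, 43.7 and 42.9 CPM in KATi, a blocked change of -0.08 ± 0.10. Ep300 and its paralog Crebbp had blocked changes of -0.06 ± 0.15 and -0.01 ± 0.11, Kat2a of 0.17 ± 0.08 and Kat2b of 0.03 ± 0.11. Inhibitors of enzyme activity need not alter the enzyme's RNA, so these levels do not check the treatment. Hat1, which acetylates newly made histone H4, had the smallest p of the family, with a blocked change of 0.37 ± 0.14. Hat1 and Kat2a were the 2 members with a blocked unadjusted p under 0.05, both higher, where 2.85% of all genes were. The Kat2a value came mainly from letter D, where the ratio was 0.53.

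Partners and opponents of these enzymes had medians near 0 as well. TIP60 complex subunits had 10 of 18 positive (median 0.02), and bromodomain and other acetyl-lysine readers had 8 of 24 positive (median -0.04). Histone deacetylases and sirtuins had 14 of 18 negative (median -0.09), with letter medians of -0.24 in A and between -0.08 and 0.02 in the others. Acss1, which makes mitochondrial acetyl-CoA from acetate, stood at 99.5, 88.7, 146 and 91.5 CPM in DMSO and 79.2, 72.1, 116 and 68.8 CPM in KATi, lower in every letter with a blocked change of -0.34 ± 0.09. Across the 15 genes of acetyl-CoA supply 9 were positive and 6 negative (median 0.02).

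Markers of other brain cells leaned in several directions, with 0 called by edgeR and Id4 called lower by the blocked DESeq2 model. Of 20 astrocyte markers 16 were negative and 8 were lower in all 4 letters, where 7.16% of all genes were. The median of these 20 markers, -0.21, ranged from -0.39 to -0.02 when single libraries were left out. Their summed level ran from 6300 to 8830 CPM in DMSO and 5630 to 8080 CPM in KATi. The list holds genes that progenitors also express, among them Id4, Aldoc and Sox9, and Id4 is also counted among the genes that restrain maturation. Aqp4, the astrocytic water channel, had a blocked change of -0.55 ± 0.26, with a ratio of -1.36 in letter D. Of 15 neuron markers measured 12 were negative (median -0.14), and their summed level ran from 1420 to 1600 CPM in DMSO and from 971 to 1820 CPM in KATi. Elavl4, a neuronal RNA-binding protein, stood at 36.2, 37.1, 38 and 35.6 CPM and at 37.3, 25.2, 36.7 and 22.6 CPM, lower in letters B and D. Of 6 measured markers of mural cells 5 were positive (median 0.37), with summed levels of 95 to 141 and 81.1 to 161 CPM. Their part in the other results was not tested. Summed endothelial markers ran from 11.4 to 29.8 CPM in DMSO and 11.5 to 30.1 CPM in KATi, and 8 of 13 were measured. Cxcl10, an interferon-induced chemokine, was higher in all KATi libraries than in any DMSO library, but at 0.083 to 0.248 CPM in DMSO and 0.472 to 2.31 CPM in KATi, with 2 to 7 reads in the DMSO libraries. Its blocked change was 2.21 ± 0.54 (adjusted p = 0.366), while the interferon list as a whole was divided 19 to 16 (median 0.02).

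Cells from postnatal day 5 share no library with the adult comparison. All 12 higher genes were higher and all 12 lower genes lower under KATi in neonatal OPCs, where 52.5% of all genes were higher and 47.5% lower. With the letter block, 12 of the 12 higher and 8 of the 12 lower genes passed the adjusted threshold in neonatal cells, against 2.75% and 2.1% of all genes (4.85% in both directions). That model estimates 1 variance per gene from adult and neonatal libraries together, and the genes were ranked with it, so the counts are not independent of the choice. In a model of the neonatal KATi and DMSO libraries alone, 7 of the 12 higher and 7 of the 12 lower genes passed with the block, where 0.553% and 0.597% of all genes passed, and 0 passed without it. Genes ranked by the same rule in the 12 treated adult libraries alone gave 11 of 12 higher and 7 of 12 lower with the block in that neonatal model, and 10 of these 24 were among the genes named above. The neonatal fits without adult libraries were added after the data were seen. Without the block 0 neonatal genes passed and 2593 had an unadjusted p under 0.05 (12.8%), and the letters did not pair all neonatal libraries either, with a correlation of -0.05 for letter C. Adm had a blocked change of 1.28 ± 0.16 in neonatal and 0.71 ± 0.17 in adult OPCs. Hes5 had changes of -0.93 ± 0.16 and -0.75 ± 0.18, and Gpr17 of -0.91 ± 0.22 and -0.94 ± 0.24.

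**Figure D4:**
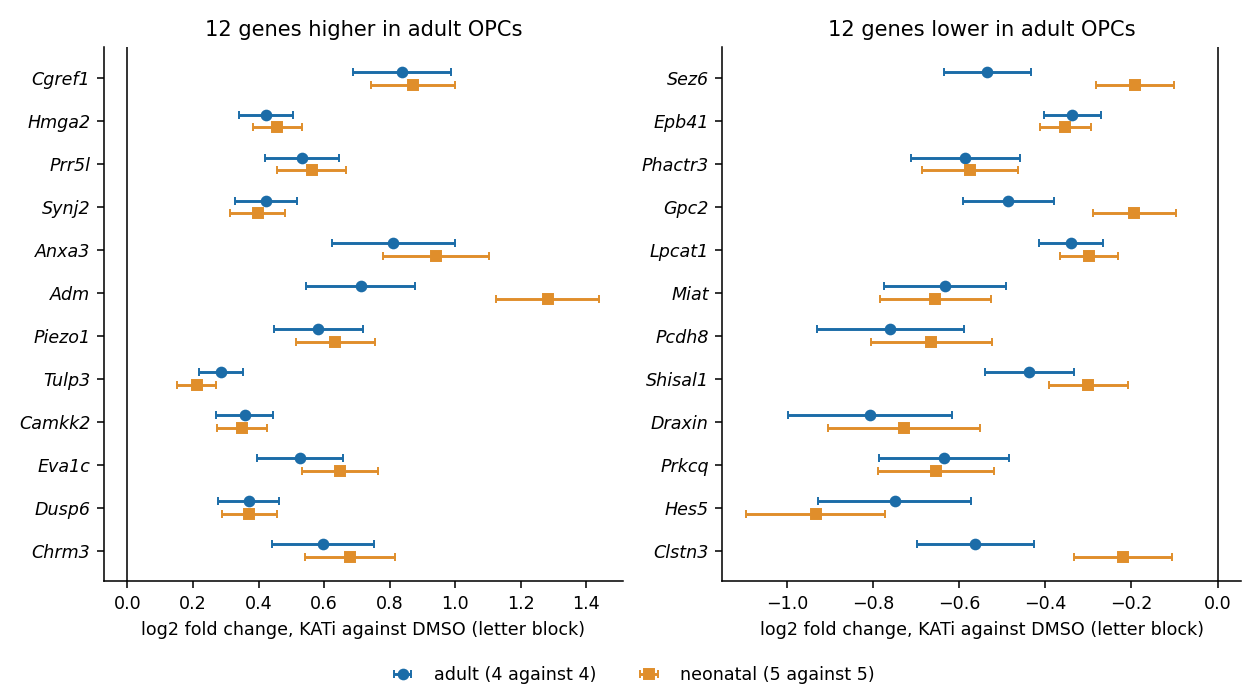
Log2 fold change of KATi against DMSO with the letter block, with standard errors as bars, for the 12 higher (left) and 12 lower genes (right) in adult (circles, 4 against 4 libraries) and neonatal OPCs (squares, 5 against 5). All neonatal points lie on the adult side of 0; Adm is further out in neonatal cells (1.28), and Sez6, Gpc2 and Clstn3 lie nearer to 0.

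The test of the difference between ages found 0 genes (0%), with 251 at an unadjusted p under 0.05 without the block (1.24%) and 694 with it (3.43%). Among the genes with the smallest p, none of them called, Gpank1 had a blocked adult minus neonatal difference of -0.53 ± 0.16 and Crip2, a LIM domain protein, of -0.45 ± 0.14. Adamts3, a metalloprotease, had a blocked change of 0.44 ± 0.22 in adult and -0.37 ± 0.18 in neonatal cells. Cdkn1a had a blocked change of 0.74 ± 0.12 in neonatal and 0.34 ± 0.13 in adult cells, a difference of -0.40 ± 0.18 that did not pass.

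The reverse reading used genes chosen by their neonatal KATi change and measured in adult libraries. Except where neonatal libraries alone are named, the neonatal test came from the model of all 32 libraries. Its variance per gene includes the adult libraries, so that choice is not independent of them. Of 557 genes higher in the blocked neonatal test, 533 were positive in adult OPCs (95.7%), with an unblocked median of 0.18 where the blocked neonatal median was 0.41. Of 426 lower genes, 412 were negative (96.7%), with a median of -0.23 against -0.51. By letter the adult median of the higher set was 0.07, 0.14, 0.14 and 0.43, and that of the lower set was -0.06, -0.20, -0.11 and -0.57, so letter D contributed most. Without letter D the mean ratio was positive for 80.6% of the higher set and negative for 81.7% of the lower set, with medians of 0.10 and -0.11. Genes chosen instead by an unadjusted p under 0.05 in the unblocked neonatal test gave 88.2% and 88.6%, but without letter D the higher set was 55% positive and the lower set 47.6% negative, near the 51.3% positive of all genes. Genes called in the neonatal libraries alone, 112 higher and 121 lower, were all on the same side in adult OPCs, and without letter D 98.2% and 95.9% were. Letter D is the letter whose KATi and DMSO libraries were not shown to pair. The genes chosen by the unblocked test and the values without letter D were added after the data were seen.

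**Figure D5:**
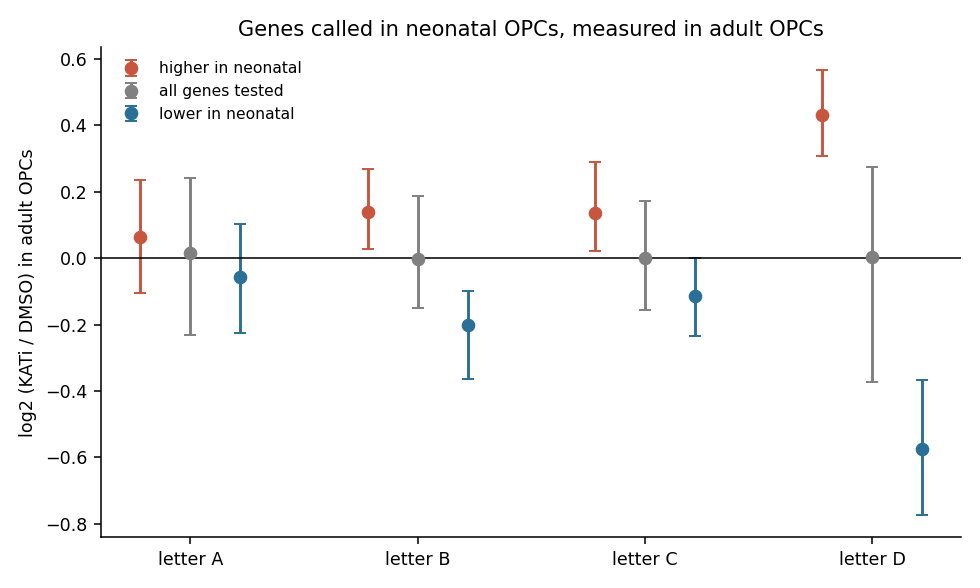
Log2 ratio of KATi to DMSO in each adult letter for the 557 genes higher and the 426 genes lower in neonatal OPCs (blocked test) and for all 20259 genes; points are medians and bars run from the lower to the upper quartile. The sets lie on opposite sides of 0 in every letter, narrowly in A (0.07 and -0.06) and widely in D (0.43 and -0.57).

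SUV420i-treated adult cells gave a second contrast, KATi against SUV420i, tested in the same model of all libraries. DMSO libraries enter it through the variance of each gene and, with the block, through the letter terms. Without the block, KATi and SUV420i differed for 0 genes (0%), with 871 at an unadjusted p under 0.05 (4.3%) and 3 called by DESeq2. With the block 322 genes differed (1.59%), 67 higher (0.331%) and 255 lower (1.26%) under KATi. Msn, the membrane linker moesin, stood at 433, 350, 317 and 426 CPM under KATi and 295, 252, 193 and 291 CPM under SUV420i, with no overlap and a blocked difference of 0.57 ± 0.08 (adjusted p = 0.000725). Ehd2, a membrane-shaping ATPase of caveolae, stood at 49.8, 46.5, 43.5 and 55.9 CPM under KATi and 35.5, 33, 29 and 36.2 CPM under SUV420i (0.55 ± 0.09, adjusted p = 0.00308). Syt7, a synaptotagmin, was lower under KATi by a blocked difference of -0.47 ± 0.08, at 43.5, 48.1, 49.8 and 52.4 CPM against 56.2, 77.2, 66.9 and 70.2 CPM. Against DMSO, Msn had blocked changes of 0.247 ± 0.076 under KATi and -0.325 ± 0.076 under SUV420i. Ehd2 had 0.266 ± 0.09 and -0.284 ± 0.09, and Syt7 had -0.22 ± 0.081 and 0.254 ± 0.081. None of these changes from DMSO passed, with blocked adjusted p of 0.146 or more. These genes were picked by the difference between the inhibitors, which favours opposite signs. Of the other genes named by that rule, Lamc1 had 0.223 and -0.248, Adarb1 -0.058 and 0.337, and Ptpru -0.066 and 0.496. The difference between the inhibitors is thus not the KATi change alone.

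Of the genes that led the comparison with DMSO, 5 of the 12 higher and 10 of the 12 lower passed in the blocked contrast with SUV420i, all in the same direction, and 0 passed without the block. These genes were chosen with the same KATi libraries, so this is not independent of the choice. Hes5 differed by -0.97 ± 0.18 (adjusted p = 0.00678), Gpr17 by -1.15 ± 0.24 (adjusted p = 0.0158) and Anxa3 by 1.13 ± 0.19 (adjusted p = 0.00314). Gpr17 stood at 1320, 47, 754 and 315 CPM under SUV420i, above the KATi library of every letter.

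In the list of fatty acid synthesis genes, with a median of -0.12 against SUV420i and -0.02 against DMSO, 23 of 28 genes were not called between the inhibitors. The other 5 were lower under KATi than under SUV420i in the blocked test and 0 higher, where 1.26% of all genes were lower, and 0 were called without the block. They were Fasn, the fatty acid synthase (-0.46 ± 0.09), the desaturases Scd1 (-0.40 ± 0.09), Scd2 (-0.40 ± 0.09) and Fads2 (-0.36 ± 0.08), and Srebf1, their transcriptional activator (-0.40 ± 0.09). Against DMSO, Fasn had a blocked change of -0.08 ± 0.09 under KATi and of 0.38 ± 0.09 under SUV420i. Both of these comparisons share the DMSO libraries and are given side by side only. These 5 genes were picked because they passed.

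Adult letters C and D, which also have an untreated library, were set against letters A and B. The KATi change differed between the 2 sets for 0 genes (0%), with 194 at an unadjusted p under 0.05 without the block (0.958%) and 383 with it (1.89%), and 2 letters per set limit this contrast. Dohh, which hydroxylates deoxyhypusine in a translation factor, had the largest unblocked difference among the genes named for it, 1.12, from 6.23, 2.76, 2.83 and 3.19 CPM in DMSO and 3.27, 2.7, 4.34 and 4.44 CPM in KATi. The other genes named by the same rule were Saysd1 (0.69), Spsb3 (0.75), Fndc9 (-0.85), Ttc8 (-0.34) and Fam228b (-0.85), none of them called.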

How the data were processed

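RNA sequencing counts from 32 libraries were used, all in 1 table of read counts per Ensembl gene as deposited by the authors. Per the submitters' processing notes, reads were handled with CASAVA 1.8.2, Subread featureCounts and DESeq2 on mm10; the strand setting and annotation release were not stated there. Coordinates come from GENCODE M21 (GRCm38). Symbols were found for 52073 of 56980 identifiers; the other 4907 hold 2.37% of counts, and 2147 identifiers belong to a newer series than M21, so the authors' gene models may differ from those printed. Overlapping, antisense and paralogous genes may share reads.

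All 32 libraries in 8 groups were fitted with edgeR 4.0.16 (R 4.3.3; TMM scaling, filterByExpr with a minimum count of 10, quasi-likelihood F test), giving 20259 genes; p-values were adjusted by Benjamini-Hochberg and called under 0.05. The block adds the library letter within each age. Log2 ratios by letter use a prior count of 2, levels are TMM-scaled CPM, and SE is the log2 change divided by the square root of F. Alternatives used DESeq2 1.42.0, limma 3.58.1, other scalings and filters, and left out single libraries or letters. The tests were also run on counts simulated from the blocked model. Those counts take the letters to pair, so they cannot check the pairing. No 2 replicates agreed within sampling noise (chi-square per degree of freedom at least 30.4). Members and 40 gene lists were chosen with earlier results of these data known. Named genes were, at a mean log2 CPM of 2 or more and without predicted, mitochondrial and ribosomal genes: called genes; where these were fewer than 12 per direction, those with the smallest blocked p and 1 direction in all 4 letters; the member of each list with the smallest blocked p; 15 lineage and target genes; and up to 3 per direction from each further contrast. The number of libraries limits precision for most genes, and counting error adds to it for genes under about 1 CPM. Single values of some list members are not reported here, and 1 named gene was left out of the check for libraries that stand apart.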

Additional observations from a re-analysis of the deposited data

Results flagged for a closer look

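In 19 of 186 groups of 4 libraries that were checked, 1 library lay further from the rest than Dixon's 95% limit allows; chance flags about 1 in 20 groups. No explanation was weighed.

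Letter B stood apart most often. In DMSO, library B was high for Adm (18.2 CPM, others 4.43 to 6.51), Chrm3 (22.9, others 5.95 to 7.45), Arc (8.68, others 1.07 to 1.78) and Col18a1 (11.5, others 3.24 to 3.86), and low for Zfp488 (18.6, others 50.5 to 56.2). In KATi, library B was high for Col18a1 (22.7, others 5.23 to 7.65), Col6a1 (3.9, others 1.95 to 2.2) and Cxcl10 (2.31, others 0.472 to 0.649), and low for Hmga2 (11, others 29.7 to 31.4), Gpc2 (4.35, others 9.64 to 9.81) and Zfp488 (13, others 43.1 to 43.7). Zfp488, a transcriptional regulator of oligodendrocyte maturation, and Col18a1 stood apart in letter B under both treatments.

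Letter A stood apart in both treatments for Shisal1 (176 CPM in DMSO and 137 in KATi) and Clstn3 (24.3 and 16.2 CPM). DMSO library A was also low for Kat2b (26.4 CPM, others 36.5 to 37.1) and high for Myc (178 CPM, others 104 to 111). Letter C stood apart in KATi for Draxin (64.1 CPM, others 9.98 to 19.2) and Hdac11 (13 CPM, others 7.99 to 8.83).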

How the results depend on the processing

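Without a block, 0 genes were called in adult KATi against DMSO under every scaling, filter and DESeq2 setting run, and when any 1 library, letters A and B or letters C and D were left out (0 to 0 called, 113 to 841 at an unadjusted p under 0.05). With the replicate block the count was 1 in all libraries, 1 in 8 libraries, 12 in the 12 adult libraries and 55 with DESeq2 in 8 libraries; a random letter effect in limma gave 0, and leaving out 1 letter gave 0. KATi against SUV420i moved from 0 to 322 with the block and to 3 with DESeq2. Libraries A, B and C correlated best with their own letter across KATi and DMSO, and D did not, so for that comparison the data do not show the letters to pair all libraries. Between KATi and SUV420i all 4 letters matched best with their own. The cause of these differences was not tested.

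With the block, Mbp took -0.034 (all libraries), -0.044 (8) and -0.03 (12 adult libraries), and Mki67 0.093, 0.089 and 0.112. Without letters A and B, Thrsp was 0.012, Kat5 0.033 and Kat2b -0.021; without C and D, Ep300 was 0.037, Crebbp 0.051, Olig2 -0.049 and Mbp -0.06. Leaving out 1 library changed the sign of 19 of 80 genes, with ranges of -0.067 to 0.793 for Camkk2, -1.246 to 0.135 for Clstn3, -0.073 to 0.049 for Crebbp, -0.56 to 0.116 for Cspg4, -1.721 to 0.026 for Draxin, -0.013 to 0.741 for Dusp6, -0.14 to 0.019 for Ep300, -0.394 to 1.131 for Flt1, -0.086 to 1.288 for Icam1, -0.088 to 0.058 for Kat2b, -0.162 to 0 for Kat5, -1.06 to 0.906 for Mbp, -0.231 to 0.315 for Mki67, -0.293 to 0.119 for Myc, -0.065 to 0.134 for Olig2, -0.562 to 0.033 for Pdgfra, -1.192 to 0.329 for Shisal1, -0.678 to 0.06 for Sox10 and -0.374 to 0.005 for Thrsp. List medians kept their sign for OPC markers (-0.32 to -0.13), S phase (0.14 to 0.46), p53 targets (0.10 to 0.26) and inhibitors of maturation (-0.22 to -0.04), but not for myelin markers (-0.36 to 0.11), growth factor feedback (-0.01 to 0.16), NRF2 targets (-0.01 to 0.21) or extracellular matrix (-0.07 to 0.16). DESeq2's scaling moved the median of all genes to -0.003. No test settles small changes here: the median blocked SE was 0.153 on the log2 scale.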

Other observations

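Several groups of genes outside the comparisons above held values of their own. Cholesterol synthesis genes were positive for 19 of 26 members (median 0.08) with letter medians of 0.34 in A, -0.18 in B, 0.04 in C and 0.35 in D, and none was higher or lower in all 4 letters. Glycolysis genes were positive for 18 of 23 (median 0.11), with letter medians of -0.12 in A, 0.09 in B, 0.09 in C and 0.28 in D. Pfkp, the platelet isoform of phosphofructokinase, had the smallest blocked p of them. It stood at 21.2, 24.2, 12.4 and 18.6 CPM in DMSO and 26.5, 28.9, 17.8 and 27.2 CPM in KATi. Autophagy and lysosome genes were negative for 21 of 29 (median -0.04). Channels and transmitter receptors of OPCs were negative for 21 of 32 (median -0.09), with Grin3a, an NMDA receptor subunit, at a blocked change of -0.23 ± 0.10. None of these genes was called with or without the block.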
